A study of Rattus norvegicus with 3 samples.

Results

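The genes described here build the machinery that docks, primes, fuses and refills secretory vesicles: synaptotagmins, SNARE proteins and their regulators, active zone scaffolds and vesicle membrane proteins. They were taken from the deposited table by symbol, as families (Syt, Stx, Stxbp, Vamp, Cplx, Syn, Sv2, Unc13, Rims) and single genes (Snap23, Snap25, Snap29, Snap47, Snap91, Syp, Synpr, Nsf, Napa, Napb, Bsn, Pclo and Rab3a), without use of their values. The selection gave 76 of 26353 entries and 75 symbols, since Rims2 has 2 entries. The 3 libraries hold RNA of commissural neurons, the spinal cord neurons whose axons cross the ventral midline, taken from rat embryos of embryonic day 13 and cultured for 2 days. The labels give 1 group, with no strain, genotype or treatment and no second condition, so every comparison is between genes inside a library. Separate cultures or animals are not named in the labels, and a p-value therefore covers the spread among these libraries alone, which may be technical.

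Fusion of a vesicle with the plasma membrane is driven by SNARE proteins, which zip together from both membranes into a bundle of helices. In neurons the core set is synaptobrevin on the vesicle and syntaxin and Snap25 on the target membrane. Munc18 proteins hold syntaxin ready, Munc13 proteins open it, complexins and synaptotagmins place fusion under the control of calcium, and NSF with its SNAP adaptors takes the spent bundle apart. Growing axons also use SNAREs to add membrane at the growth cone, before synapses exist.

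Levels are given as the FPKM deposited by the authors, a unit that divides the fragments of a gene by its length and by the size of the library, so that genes can be set side by side. FPKM does not give the depth of a library. Whole cultures were measured, and fewer cells of a type and less RNA per cell cannot be told apart. The neuronal markers Tubb3, Stmn2, Dcx, Map2, Elavl3 and Rbfox3 had means of 27.0 to 960 FPKM, and the commissural markers Robo3, Dcc, Boc and Cntn2 15.3 to 104 FPKM. Progenitor markers (3.15 to 564 FPKM for Nes, Hes5, Slc1a3, Sox2, Vim and Fabp7) and proliferation markers (4.46 to 16.6 FPKM) were measured too. Of 5 macrophage markers, Aif1 (6.76 FPKM) and Csf1r (1.82 FPKM) had the highest means, and the rest had 0.24 to 0.73 FPKM. The part of all these markers' cells in the levels below was not tested. Library 2 stood apart from the other two in genes with very long transcripts, and its values for the members are given with the results.

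Most of the release machinery was expressed. Of the 76 entries, 75 were above 0 in at least 1 library and were tested, and Syt8 was listed at 0 in all 3. Above 1 FPKM lay 64 entries in limma's one-sided test of log2(FPKM + 0.1), with Benjamini-Hochberg adjustment over all 17611 entries tested at a threshold of 0.05; over those 17611, 63.7% did. Below 1 FPKM lay 9, against 30.8% of all entries tested. Neither test passed for SYT17 and Syt2. The median over the 76 entries was 8.17 FPKM, beside 4.81 FPKM over the 17611. At 50 FPKM or more stood 10 of the 76 (13.2%), beside 9.06% of all entries tested, and at 100 FPKM or more 3 (3.95% beside 4.36%). Rab3a and Vamp2 were among the latter, and Syt11, Snap25, Stx7, Stx12, Syp, Syt4 and Napa had means between these levels.

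**Figure D1:**
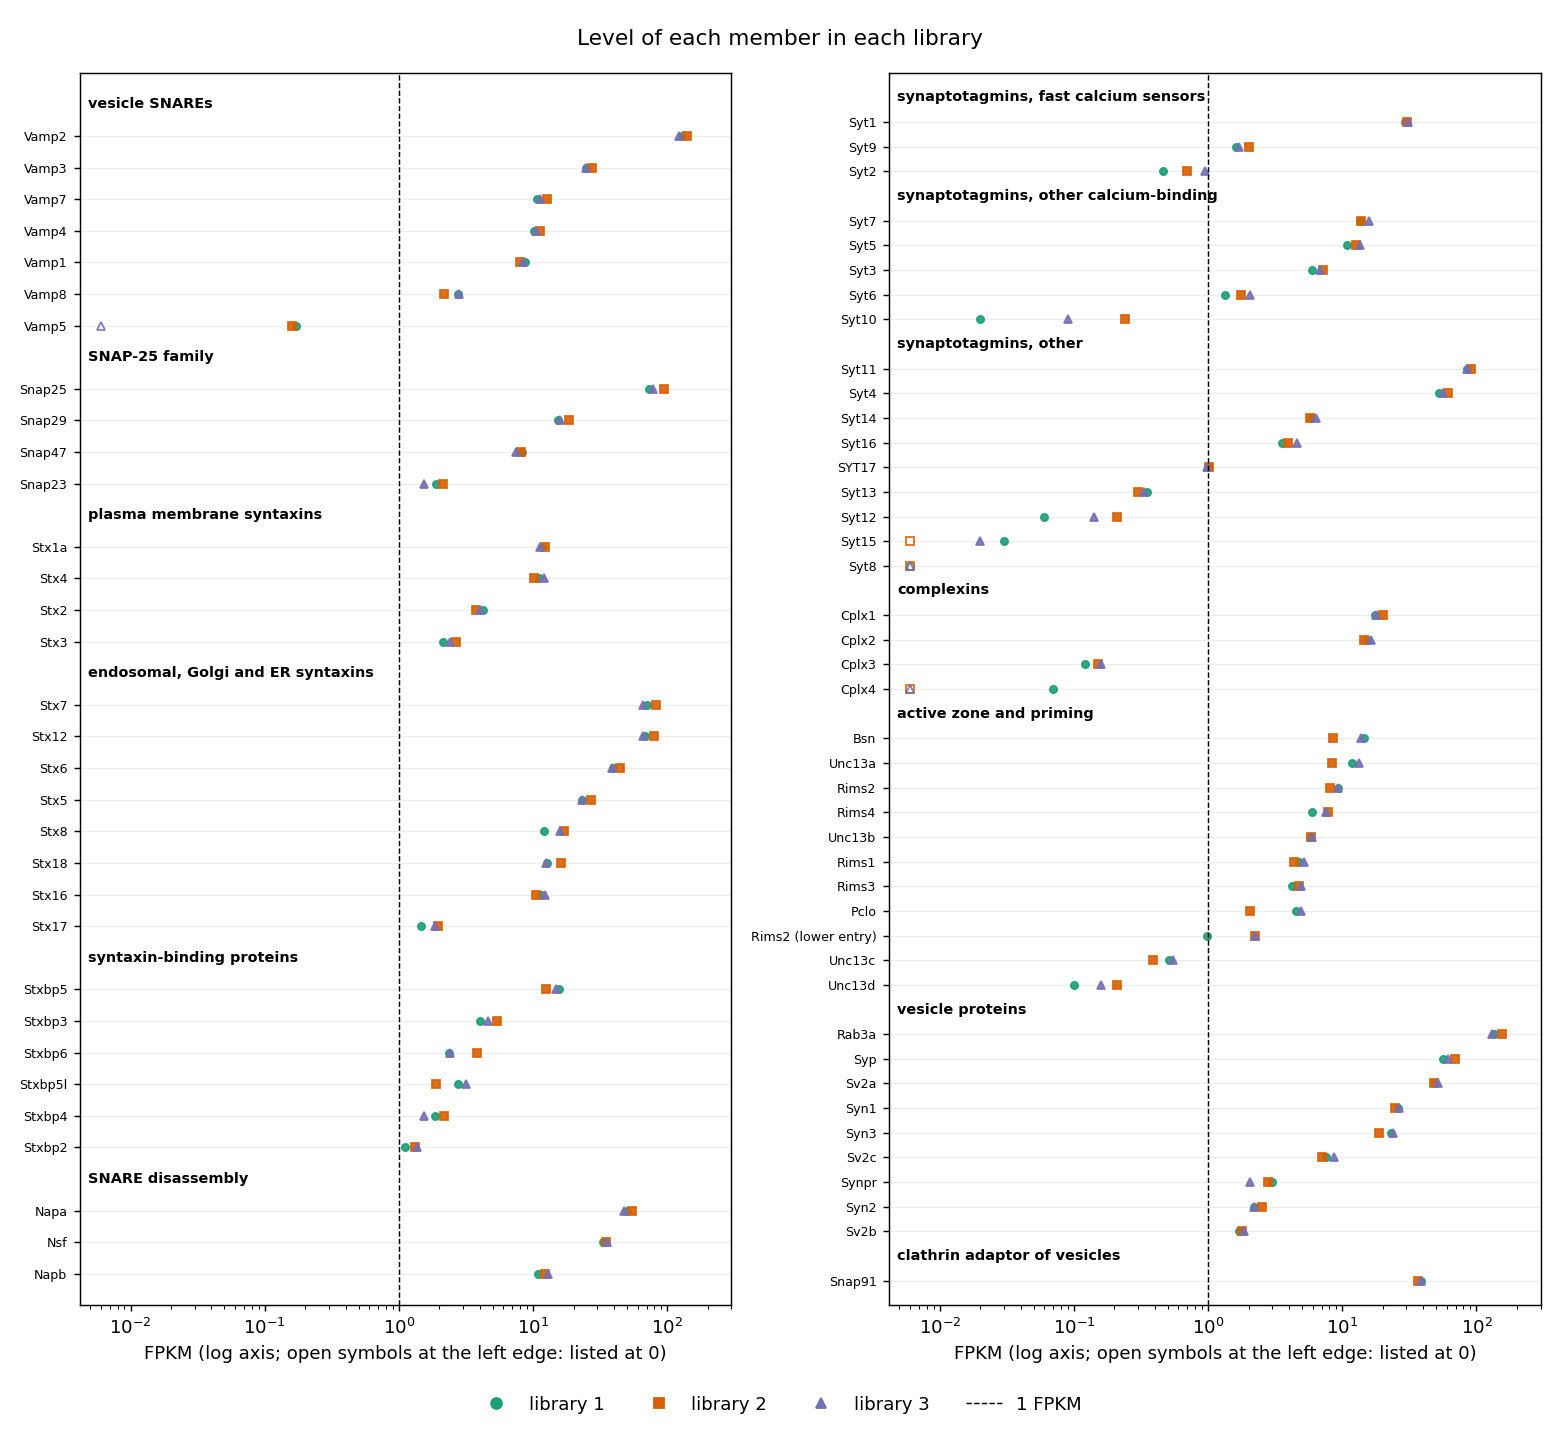
Level of 74 entries in FPKM (log axis) in libraries 1, 2 and 3, grouped by role and ordered by mean within each group; the dashed line marks 1 FPKM and open symbols at the left edge are values listed at 0. Rab3a and Vamp2 have means above 100 FPKM, and 9 entries lie below 1 FPKM past the test.

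Promoter sequence was compared as a feature that the selection did not use. RefSeq promoters (assembly GRCr8, 250 bases before to 50 after the start, 1 per symbol) matched 60 of the 75 symbols. Their median GC content was 62.8%, from 37.7% in Syt14 to 79.7% in Syt9, beside 60.3% over the 11350 tested genes with a promoter. The palindromic cAMP response element TGACGTCA, the site that CREB binds, which reads the same on both strands, was found in 3 of 60 (5.0%), beside 2.92% of the 11350 genes. The TATAAA box was found on either strand, with no overlap with the other motifs required or barred, in 3 of 60 (5.0%, beside 7.67%) and CCAAT in 22 of 60 (36.7%, beside 37.3%). The 3 promoters with the cAMP element belonged to an adaptor of disassembly, a vesicle SNARE and a synapsin, with means of 50.9, 8.40 and 25.7 FPKM in that order, and are shown as the members that hold it. Each line gives 40 bases on the gene's strand, with the element in capitals. A match describes the letters alone, and binding was not measured.
Napa (GRCr8 chr1:85915360-85915399, plus strand, element starting 59 bases before the start): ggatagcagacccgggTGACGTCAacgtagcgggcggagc
Vamp1 (GRCr8 chr4:159698807-159698846, plus strand, element starting 71 bases before the start): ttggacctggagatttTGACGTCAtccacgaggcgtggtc
Syn1 (GRCr8 chrX:3725539-3725578, plus strand, element starting 190 bases before the start): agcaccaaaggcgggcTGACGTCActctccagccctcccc

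Vesicle SNAREs were led by Vamp2, the synaptobrevin of most brain synapses, with 128, 139 and 122 FPKM in libraries 1, 2 and 3. Vamp3, the cellubrevin of general recycling, had 24.7, 27.4 and 24.9 FPKM. The lowest Vamp2 value lay well above the highest Vamp3 value, and Vamp2 exceeded Vamp3 by 5.05-fold (4.58 to 5.56, the 95% interval; limma, adjusted p = 1.15e-09, with the same sign in 3 of 3 libraries). Vamp7, a SNARE of late endosomes that also serves neurite outgrowth, had 10.7, 12.7 and 11.3 FPKM, and Vamp4, of the trans-Golgi network, had 10.1, 11.2 and 10.47 FPKM. This pair overlapped in range and did not differ past the threshold (fold 1.08, interval 0.918 to 1.28). Vamp1, the synaptobrevin typical of mature spinal and motor circuits, had 8.76, 8.03 and 8.42 FPKM. Vamp2 exceeded it by 15.3-fold (13.3 to 17.6; limma, adjusted p = 5.27e-10, 3 of 3 libraries). Vamp8, of endosomes and secretory cells, had a mean of 2.57 ± 0.344 FPKM (SD, n = 3), and Vamp5, known from muscle, was listed at 0.17, 0.16 and 0. So 6 of 7 vesicle SNAREs lay above 1 FPKM and Vamp5 lay below it. Of the summed FPKM of the family, Vamp2 made up 68.8% ± 0.781 (SD, n = 3) and Vamp1 4.46% ± 0.410.

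Among target SNAREs of the Snap25 family, Snap25 itself, the neuronal partner of Vamp2, had 72.7, 93.9 and 77.9 FPKM. Library 2 was the highest of the 3. Snap29, which acts in endosomal and autophagosomal fusion, had 15.4, 18.5 and 15.9 FPKM, with library 2 again highest. Snap47, found in neurons and other cells, had 8.20, 8.14 and 7.48 FPKM. Snap23, the form of non-neuronal cells, had 1.89, 2.12 and 1.54 FPKM and was the lowest in every library. All 4 lay above 1 FPKM, and each exceeded the next in the order: Snap25 over Snap29 by 4.88-fold (4.32 to 5.50), Snap29 over Snap47 by 2.07-fold (1.74 to 2.47) and Snap47 over Snap23 by 4.15-fold (3.29 to 5.24).

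Among syntaxins of the plasma membrane, Stx1a, a neuronal form, had 11.7, 12.3 and 11.2 FPKM. Stx4, the syntaxin of constitutive exocytosis, had 11.1, 10.2 and 12.1 FPKM, a range that overlapped that of Stx1a, and no difference passed the threshold (fold 1.05, 0.873 to 1.27). Stx2 had 4.23, 3.77 and 4.02 FPKM and Stx3, known from ribbon synapses and epithelia, 2.14, 2.65 and 2.39 FPKM. These 4 lay above 1 FPKM. In the RefSeq order of protein-coding genes (assembly GRCr8) Vamp5 and Vamp8 are direct neighbours. The treatment of reads that fit more than 1 gene is not given in the sources used here, so values of close relatives such as Vamp2 and Vamp3 are uncertain to that extent.

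The highest syntaxins were those of internal membranes. Stx7, of late endosomes, had 71.0, 82.5 and 66.2 FPKM, and Stx12, of recycling endosomes, had 68.0, 80.1 and 66.1 FPKM. Each was highest in library 2, and they did not differ past the threshold (fold 1.02, 0.940 to 1.12). Stx6, of the trans-Golgi network, had 39.1, 44.1 and 38.9 FPKM, and Stx5, of traffic from the endoplasmic reticulum to the Golgi, had 23.1, 26.8 and 22.96 FPKM. Stx8, Stx18 and Stx16 followed with means of 14.9 ± 2.59, 13.8 ± 2.02 and 11.4 ± 0.890 FPKM, whose neighbours in order did not differ past the threshold. Stx17, the syntaxin of autophagosomes, had 1.76 ± 0.263 FPKM and was the lowest of the 8. All 8 lay above 1 FPKM.

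Of the proteins that bind syntaxin, Stxbp5 (tomosyn), which holds SNAREs in an unproductive complex, had 15.5, 12.5 and 14.9 FPKM, with library 2 lowest. Stxbp3, the Munc18 form found in most tissues, had 4, 5.41 and 4.57 FPKM. Stxbp6 (amisyn) had 2.38, 3.79 and 2.40 FPKM, higher in library 2 than in the other two. Stxbp5l, the second tomosyn gene, had 2.60 ± 0.649 FPKM and Stxbp4 1.86 ± 0.310 FPKM. Stxbp2, the Munc18 form of blood cells and epithelia, had 1.10, 1.32 and 1.36 FPKM and lay above 1 FPKM with limma's adjusted p = 0.0419, which became 0.105 without library 2 and 0.185 without library 3. With it, these 6 lay above 1 FPKM.

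The genes that recycle SNAREs were all present. Napa (alpha-SNAP) had 50.3, 54.6 and 47.7 FPKM, the ATPase Nsf 33.1, 35.1 and 35.7 FPKM and Napb (beta-SNAP), the brain form of the adaptor, 10.9, 12.3 and 13.0 FPKM. The 3 ranges did not overlap, with Nsf 2.86-fold above Napb (2.46 to 3.32; limma, adjusted p = 3.01e-07) and Napa 1.47-fold above Nsf (1.30 to 1.66; limma, adjusted p = 1.04e-04). Of the summed FPKM of both adaptors, Napa made up 80.8% ± 1.91.

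Vamp2 and Snap25, which pair in the neuronal fusion complex, stood at unequal levels. Vamp2 exceeded Snap25 by 1.60-fold (1.46 to 1.75; limma, adjusted p = 2.89e-06, 3 of 3 libraries). This and the other pairs that are not neighbours in a group were chosen after their values were seen.

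Synaptotagmins carry paired C2 domains, and in several members these bind calcium and membrane. Of the 17 in the table, 10 (58.8%) lay above 1 FPKM, beside 63.7% of all entries tested, so the family did not exceed that share. Below 1 FPKM lay 4, beside 30.8% of all entries tested, 2 passed neither test, and Syt8 was not tested. The highest were not the fast calcium sensors. Syt11 had 85.4, 90.7 and 85.0 FPKM and its close relative Syt4 52.2, 61.3 and 56.0 FPKM; both carry a substitution in the first C2 domain that impairs calcium binding there, and both are found on Golgi-derived vesicles. Syt1, the fast sensor of most forebrain synapses, had 29.3, 30.1 and 30.8 FPKM, below every value of Syt4. Syt11 exceeded Syt1 by 2.89-fold (2.60 to 3.21; limma, adjusted p = 2.35e-08) and Syt4 exceeded it by 1.87-fold (1.66 to 2.11; limma, adjusted p = 2.70e-06), in 3 of 3 libraries each, and Syt11 exceeded Syt4 by 1.54-fold (1.41 to 1.69). Together, Syt4 and Syt11 made up 64.4% ± 1.65 of the summed FPKM of the family, and Syt1, Syt2 and Syt9 14.6% ± 0.376.

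The other fast sensors were low. Syt9 had 1.61, 2.03 and 1.70 FPKM, above 1 FPKM past the test. Syt2, the fast sensor of mature spinal cord and hindbrain synapses, had 0.46, 0.70 and 0.94 FPKM, under 1 FPKM in every library, but limma's adjusted p for lying below it was 0.0568, and 0.00832 without library 3. Syt1 exceeded Syt9 by 16.1-fold (13.2 to 19.6; limma, adjusted p = 3.03e-09), and Syt9 exceeded Syt2 by 2.41-fold (1.69 to 3.45; limma, adjusted p = 4.96e-04), each in 3 of 3 libraries.

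Of the other calcium-binding synaptotagmins, Syt7, a slow sensor of high affinity, had 13.5, 13.7 and 15.9 FPKM. Syt5 had 10.8, 12.6 and 13.6 FPKM, overlapping with Syt7, from which it did not differ past the threshold (fold of Syt7 over Syt5 1.17, 0.988 to 1.38; limma, adjusted p = 0.0697, and 0.0170 without library 2). Syt3 had 5.90, 7.12 and 6.85 FPKM and Syt6 1.33, 1.77 and 2.05 FPKM. These 4 of 5 lay above 1 FPKM. Syt10, a sensor for peptide and growth factor secretion, was listed at 0.02, 0.24 and 0.09 FPKM and lay below. Syt1 exceeded Syt7 by 2.09-fold (1.79 to 2.43; limma, adjusted p = 4.53e-06, 3 of 3 libraries).

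Among the remaining synaptotagmins, Syt14 had 5.80, 5.73 and 6.32 FPKM and Syt16, its closest relative, 3.57, 3.95 and 4.63 FPKM, with no overlap. SYT17 had 1.00, 1.01 and 0.98 FPKM, at the level tested against. Syt13 (0.327 ± 0.0252 FPKM) and Syt12 (0.137 ± 0.0751 FPKM) lay below 1 FPKM, as did Syt15, listed at 0.03, 0 and 0.02.

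**Figure D2:**
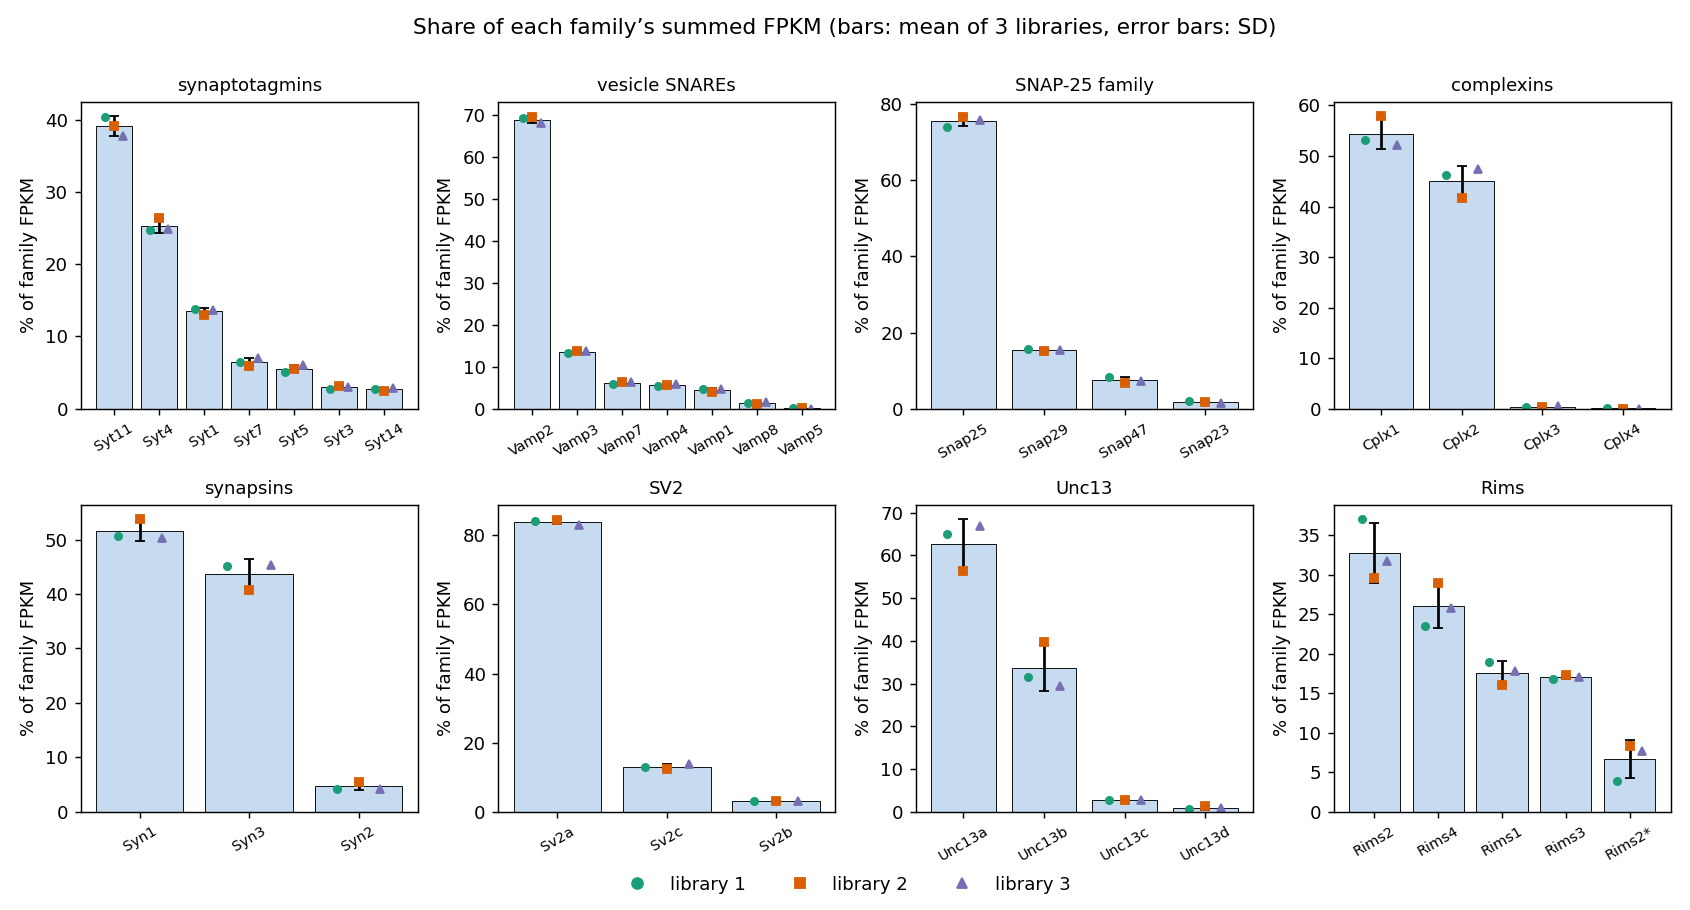
Share of each gene in the summed FPKM of its family (bars, mean of 3 libraries; error bars, SD; points, single libraries), with the 7 highest synaptotagmins shown and the lower of the 2 Rims2 entries marked with an asterisk. Vamp2 (68.8%), Snap25 (75.5%) and Sv2a (83.9%) hold most of their families, while the synaptotagmins are led by Syt11 (39.1%) and Syt4 (25.3%).

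Complexins are small proteins that clamp and then promote fusion. Cplx1 had 17.4, 20.0 and 17.9 FPKM and Cplx2 15.2, 14.5 and 16.3 FPKM, so that Cplx1 was higher in each library and the ranges did not overlap. The ratio was 1.20-fold (1.01 to 1.43; limma, adjusted p = 0.0398), and the adjusted p was 0.0989, 0.0805 and 0.0625 without libraries 1, 2 and 3. Cplx3, known from the retina, had 0.143 ± 0.0208 FPKM and Cplx4 was listed at 0.07, 0 and 0, and both lay below 1 FPKM. On the scale of log2(FPKM + 0.1), Cplx2 exceeded Cplx3 by 63.4-fold (48.3 to 83.0). The added 0.1 is close to the level of Cplx3, so the ratio of the FPKM values themselves is larger in every library.

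Scaffolds and priming factors of the active zone, the patch of membrane where vesicles fuse, had a median of 4.78 FPKM over 11 entries. Bsn (bassoon), a giant scaffold, had 14.5, 8.48 and 13.8 FPKM, and Pclo (piccolo), its relative, 4.50, 2.05 and 4.89 FPKM. Unc13a (Munc13-1), the main priming factor of excitatory synapses, had 11.8, 8.32 and 13.4 FPKM. In all 3 of these genes library 2 was the lowest. Unc13b (Munc13-2) had 5.71, 5.86 and 5.90 FPKM, and Unc13a exceeded it by 1.87-fold (1.47 to 2.38; limma, adjusted p = 3.72e-04, 3 of 3 libraries). Unc13c, known from the cerebellum, had 0.483 ± 0.0833 FPKM and Unc13d, which serves granule release in blood cells, 0.157 ± 0.0551 FPKM, and both lay below 1 FPKM.

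The RIM proteins of Rims1 and Rims2 tether vesicles and calcium channels at the active zone, and all 4 Rims genes lay above 1 FPKM. Rims2 had 9.32, 8.05 and 9.25 FPKM, Rims4 5.91, 7.88 and 7.50 FPKM, Rims1 4.77, 4.37 and 5.19 FPKM and Rims3 4.22, 4.72 and 4.95 FPKM. Rims1 and Rims3 overlapped and did not differ past the threshold (fold 1.03, 0.826 to 1.29), while Rims2 exceeded Rims1 by 1.84-fold (1.51 to 2.24; limma, adjusted p = 1.05e-04). A further entry under the symbol Rims2 (ENSRNOG00000047652, beside ENSRNOG00000004201) had 0.98, 2.25 and 2.25 FPKM, lower in library 1 than in the other two. It lay above 1 FPKM (limma, adjusted p = 0.0208), but not without library 2 (adjusted p = 0.173). Whether its reads belong with those of the first entry was not tested, so the level of Rims2 is uncertain. Over the 11 active zone entries, 9 lay above 1 FPKM and 2 below.

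Of the genes of the vesicle itself, Rab3a, the GTPase that marks secretory vesicles, had 135, 156 and 131 FPKM, the highest mean of the set. Syp (synaptophysin), a major vesicle membrane protein, had 55.9, 68.7 and 60.8 FPKM, and Sv2a, a vesicle glycoprotein, 48.8, 48.5 and 51.7 FPKM. Rab3a exceeded Syp by 2.27-fold (2.09 to 2.47; limma, adjusted p = 3.12e-08, 3 of 3 libraries). It exceeded Vamp2 by only 1.08-fold (1.01 to 1.15; limma, adjusted p = 0.0314), with an adjusted p of 0.0842, 0.0682 and 0.0944 without libraries 1, 2 and 3. Sv2c had 7.54, 7.04 and 8.64 FPKM and Sv2b 1.70, 1.80 and 1.86 FPKM, and Sv2a exceeded Sv2b by 26.4-fold (22.2 to 31.3; limma, adjusted p = 5.95e-10).

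Synapsins tie vesicles into a reserve cluster. Syn1 had 26.1, 24.7 and 26.5 FPKM and Syn3, the form known from early neuronal development, 23.2, 18.7 and 23.9 FPKM. Syn1 was higher in 3 of 3 libraries, by 1.18-fold (1.01 to 1.37; limma, adjusted p = 0.0415), with an adjusted p of 0.124, 0.0586 and 0.0828 without libraries 1, 2 and 3. Syn2 had 2.18, 2.51 and 2.21 FPKM, and Syn1 exceeded it by 10.8-fold (8.86 to 13.1; limma, adjusted p = 7.15e-09, 3 of 3 libraries). Synpr (synaptoporin), a relative of Syp, had 2.99, 2.79 and 2.06 FPKM. Snap91 (AP180), the clathrin adaptor that helps to rebuild vesicles, had 38.7, 36.5 and 38.5 FPKM. All 9 genes of the vesicle and Snap91 lay above 1 FPKM.

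The order of levels was tested over all pairs of the 71 symbols above 0 in every library. Of 2485 pairs, 2310 (93%) differed past the threshold in limma's two-sided test with Benjamini-Hochberg adjustment over all pairs. The pairs share members and are not independent. No share was computed for pairs of genes outside the selection, so the 93% cannot be called particular to these genes. Within the groups by role, 42 of 58 pairs of neighbours in the order differed, and 28 passed a test against a margin of 1.5-fold. Those that no longer passed were Napa over Nsf, Unc13a over Rims2, Cplx1 over Cplx2, Stx6 over Stx5, Stx5 over Stx8, Stx2 over Stx3, Syt11 over Syt4, Syt14 over Syt16, Syt13 over Syt12, Stxbp3 over Stxbp6, Stxbp4 over Stxbp2, Vamp4 over Vamp1, Syp over Sv2a and Syn1 over Syn3. Vamp2 over Snap25 and Rab3a over Vamp2 did not pass at that margin either. The active zone group had the lowest share of neighbour pairs past the threshold, with 3 of 9. Besides the pairs given above, a call was lost with 1 library left out for Vamp4 over Vamp1 (adjusted p = 0.0214, and 0.0804 without library 3), Unc13c over Unc13d (0.00297, and 0.0654 without library 3), Stxbp4 over Stxbp2 (0.0304, and 0.128 and 0.0790 without libraries 1 and 2), Syt13 over Syt12 (0.0188, and 0.0847 and 0.148 without libraries 1 and 3) and Unc13a over Rims2 (0.0460, and 0.149 and 0.312 without libraries 1 and 3), all from limma's test.

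**Figure D3:**
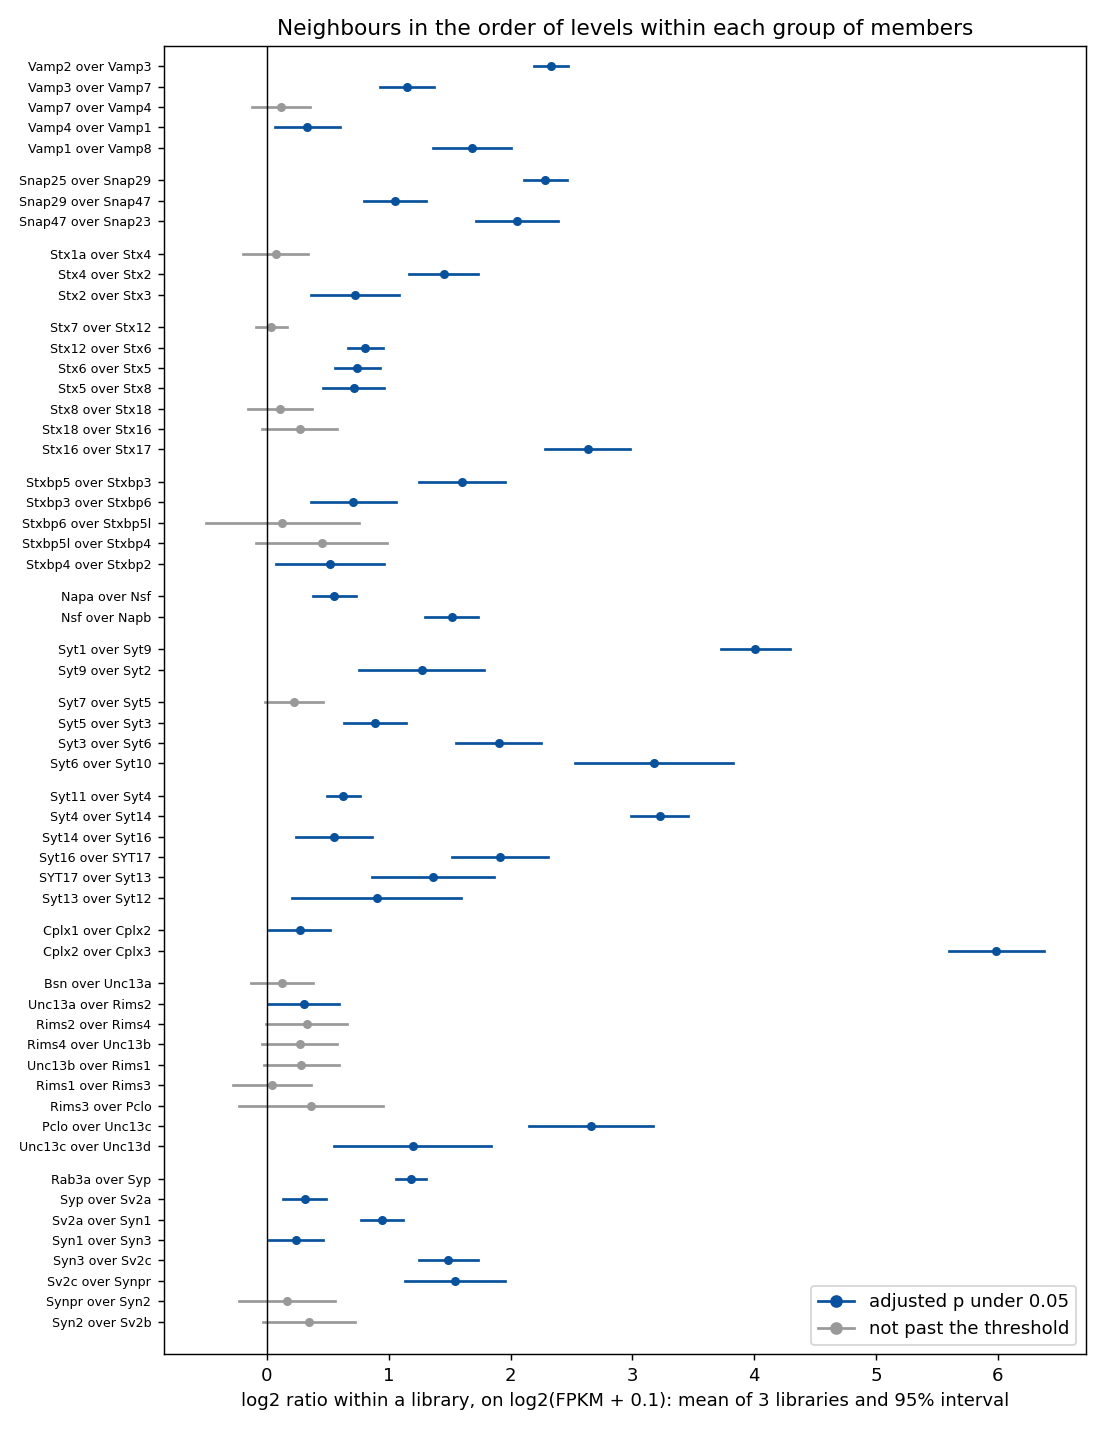
Log2 ratio of each gene to the next lower gene of its group, on log2(FPKM + 0.1) within a library (points, mean of 3 libraries; bars, 95% interval of limma's test). Of the 56 pairs drawn, the 40 in blue passed the threshold; the widest step is from Cplx2 to Cplx3, and the 7 active zone pairs from Bsn down to Pclo have log2 ratios of 0.04 to 0.36.

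The libraries were not alike for every member. Over the 64 entries with a mean of at least 1 FPKM, the log2 difference of library 2 from the mean of libraries 1 and 3 had a median of 0.10, beside 0.13 over all 11662 entries of the table at that level. Library 2 was the highest of the 3 for 31 of the 64, the lowest for 19 and between the others for 14. Its difference from the mean of libraries 1 and 3 was positive for 43 of the 64, beside 8350 of all 11662 entries. The difference was negative for 21 of the 64, beside 3312 of the 11662. At -0.5 or lower stood 4 of the 64 (6.25%, beside 3.30% of all entries): Pclo at -1.16, Bsn at -0.73, Stxbp5l at -0.62 and Unc13a at -0.59. The difference between libraries 1 and 3 was -0.12, 0.07, -0.19 and -0.18 for these genes. Library 2 was lower as well for 15 of 15 genes known for very long transcripts, among them Dync1h1, Macf1 and Huwe1 (median -0.94). It was also lower for the commissural markers Robo3 (118, 74.5 and 119 FPKM), Dcc (68.0, 48.1 and 71.6 FPKM) and Cntn2 (44.2, 33.4 and 46.4 FPKM), but not for Boc (15.0, 15.7 and 15.1 FPKM). Transcript lengths of the members were not used here, and the part of length in these values was not tested. At the other end stood Stxbp6 at 0.64 and the lower Rims2 entry at 0.56, and Snap25 had 0.32. Without library 2, Rims2 over Rims4, which did not pass with all libraries (limma, adjusted p = 0.0562), did so (0.00308), as did Stxbp5l over Stxbp4 (0.0945, and 0.00318 without library 2), while Rims3 over Pclo did so without library 1 (0.198, and 0.0240).

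**Figure D4:**
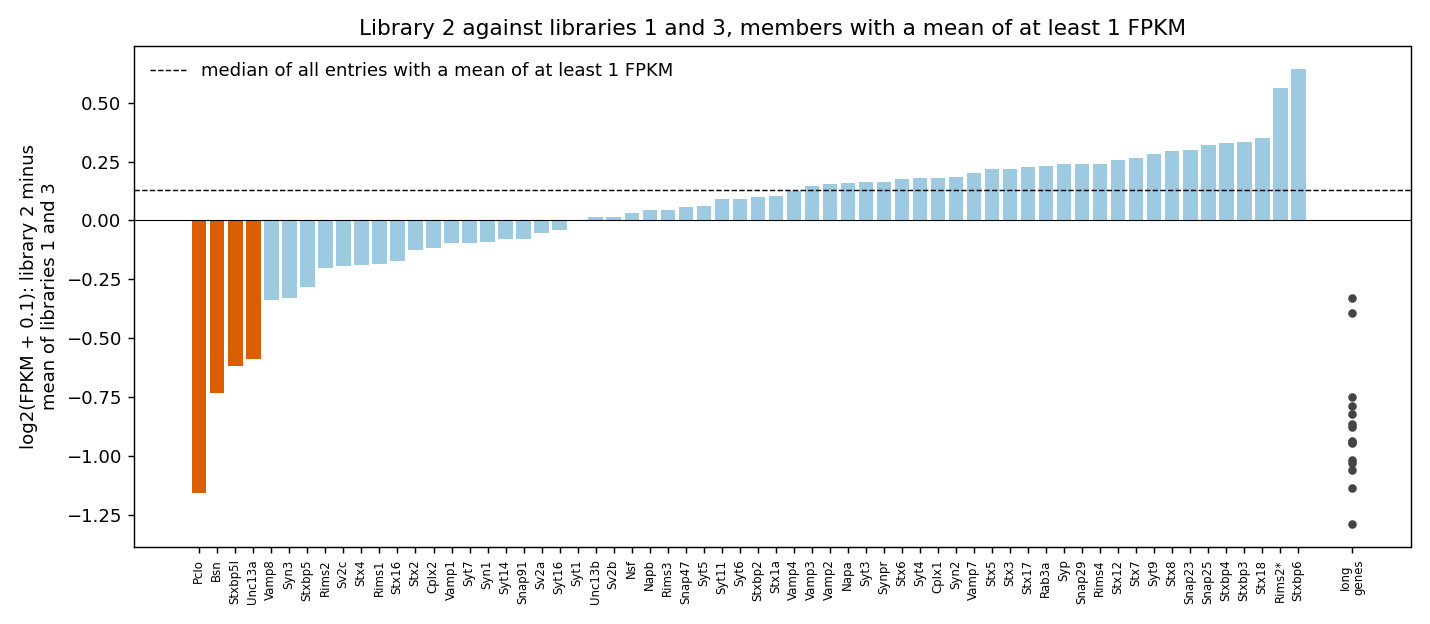
Difference of library 2 from the mean of libraries 1 and 3 on log2(FPKM + 0.1), for 62 entries with a mean of at least 1 FPKM (bars; orange, -0.5 or lower; asterisk, the lower Rims2 entry) and for 15 genes with very long transcripts (points at the right). Pclo, Bsn, Stxbp5l and Unc13a lie within the range of the long genes, as does Vamp8 (-0.34) near its upper end, and the dashed line is the median over all entries, 0.13.

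Other genes of the vesicle cycle, from lists outside the selection, were measured in the same fit. Of 88 genes, 72 (81.8%) lay above 1 FPKM in limma's test, beside 63.7% of all entries tested, and 12 below, beside 30.8%. All 10 other trafficking SNAREs and relatives passed, from Ykt6 at 59.5 ± 5.81, Vti1b at 42.7 ± 5.26 and Use1 at 41.9 ± 4.90 FPKM to Bet1 at 11.4 ± 2.15 and Gosr1 at 10.4 ± 0.729 FPKM. The exocyst, which tethers vesicles to the plasma membrane before SNAREs engage, passed in 9 of 9 genes. Exoc5 at 37.0 ± 2.98, Exoc2 at 32.4 ± 0.313 and Exoc3 at 29.7 ± 2.88 FPKM were highest. Exoc7 at 4.98 ± 0.0300 and Exoc6 at 3.79 ± 0.735 FPKM were lowest. The value of Exoc7 is that of the higher of its 2 entries, and the other had 1.32, 1.42 and 0.99 FPKM. Of the partners of the active zone, 11 of 12 passed, among them the adaptor Apba2 (55.9 ± 5.28 FPKM), Cask (28.5 ± 1.57 FPKM) and Apba1 (23.3 ± 0.858 FPKM), while Rimbp2 had 3.41 ± 0.560 FPKM and Lin7b, at 0.76, 1.61 and 1.94 FPKM, did not pass.

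The Rab3 and Rab27 cycle passed in 9 of 12 genes. Rab3c, a relative of Rab3a, had 68.4 ± 5.28 and Rab3ip 26.8 ± 2.95 FPKM, while Rab27a (0.150 ± 0.0265 FPKM) and Rph3al (0.127 ± 0.0404 FPKM) lay below 1 FPKM. The list of other calcium-dependent regulators stood apart from the rest, with 1 of 10 above 1 FPKM and 7 below. Cadps (CAPS1), a priming factor of dense-core vesicles, had 48.2, 48.1 and 50.8 FPKM, a level above those of Syt1 and Unc13a in every library. Its relative Cadps2 had 0.260 ± 0.0964 FPKM, the calcium sensors Doc2a and Doc2b had 0.413 ± 0.136 and 0.147 ± 0.0208 FPKM, and Doc2g, at 1.31, 0.94 and 1.28 FPKM, passed neither test. Otof was listed at 0, 0.02 and 0.01 FPKM, and both entries under the symbol Sytl2 were listed at 0 in all libraries.

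Other proteins of the vesicle membrane passed in 12 of 14 cases, with Scamp1 at 61.0 ± 4.14, Atp6v0a1, a subunit of the proton pump that drives vesicle loading, at 60.4 ± 3.40 and Dnajc5, a vesicle chaperone of SNAREs, at 56.6 ± 2.24 FPKM. The vesicular transporters Slc17a6 for glutamate (40.4, 38.8 and 39.3 FPKM) and Slc32a1 for GABA and glycine (43.6, 49.7 and 49.6 FPKM) stood near Sv2a, whereas Slc17a7, the glutamate transporter of cortex, was listed at 0.03, 0 and 0.02. Sypl2, a relative of Syp, was the lowest of the list at 0, 0 and 0.03, and both lay below 1 FPKM. Genes that retrieve vesicle membrane passed in 20 of 21 cases, with a median of 37.7 FPKM. The clathrin adaptor subunit Ap2m1 (276 ± 28.0 FPKM), the light chain Clta (166 ± 18.2 FPKM) and Ap2s1 (101 ± 13.5 FPKM) were highest, and Itsn2 (2.28 ± 0.298 FPKM) and Ston2 (0.887 ± 0.255 FPKM) lowest. Most adaptor and clathrin subunits serve endocytosis in all cells.

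**Figure D5:**
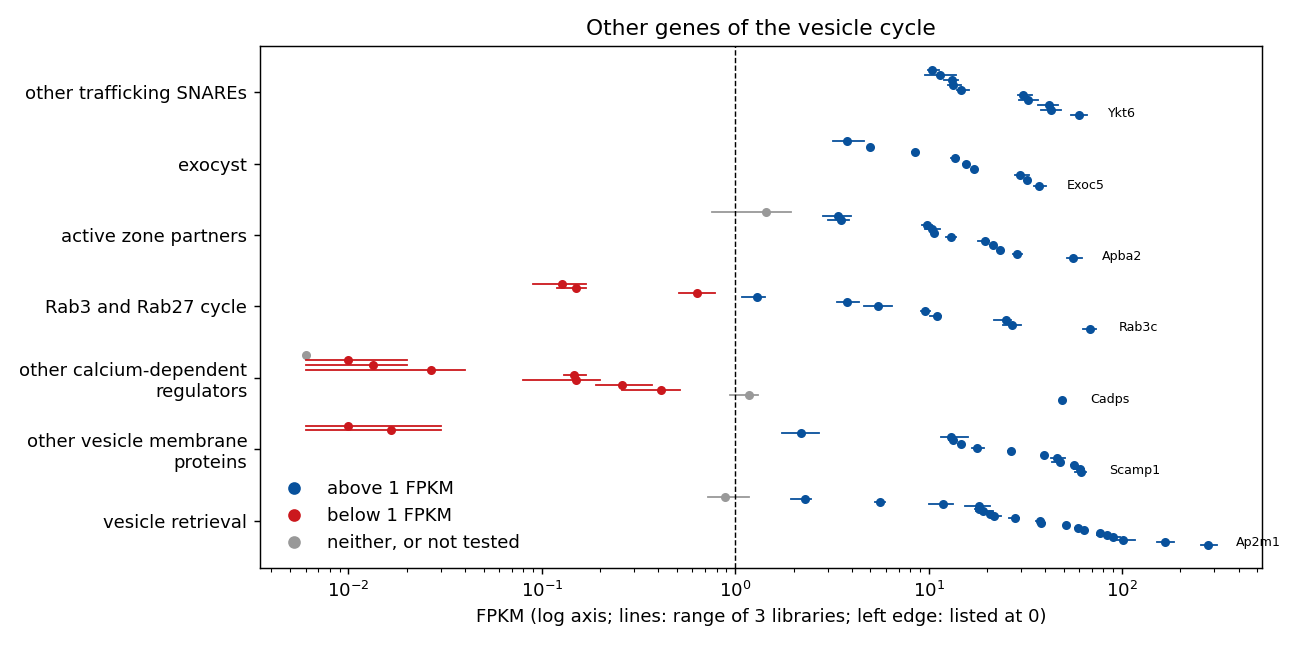
Mean FPKM (points, log axis) and range over 3 libraries (lines) of 87 other genes of the vesicle cycle in 7 lists, with the highest gene drawn in each list named; the dashed line marks 1 FPKM. In limma's test the list of other calcium-dependent regulators has 7 of 10 genes below 1 FPKM and Cadps alone above it. Doc2g, with a mean of 1.18 FPKM, passed neither test.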

How the data were processed

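The 3 libraries of commissural neurons form 1 group. Poly(A) RNA went into a strand-preserving library kit and was read as 50 bp pairs, per the labels' protocols. FastQC, Trimmomatic 0.22 and STAR are the tools, and rn6 the build, in the submitters' processing notes. The authors deposited 1 table of FPKM values. Not given in the sources used here are its quantification tool, annotation and treatment of shared reads. The table holds no counts, and the depth is unknown.

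Tests ran on log2(FPKM + 0.1) without rescaling. With limma 3.58.1 (R 4.3.3, statmod 1.5.0; robust prior with a mean-variance trend), each entry with a value above 0 in any library was tested one-sided against 1 FPKM, and log2 ratios of members within a library two-sided, with Benjamini-Hochberg adjustment and a threshold of 0.05. A two-sided exact sign-flip test on 3 libraries cannot go below p = 0.25. The p-values leave out errors of length or mapping that all libraries share. Fold differences are on the log2(FPKM + 0.1) scale, which understates those of low genes. The tests were checked on simulated data.

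Members and lists were chosen with earlier results of these data known, although members were taken by symbol and not by their values. The rule named the 4 highest members of each role and a fixed set of core genes by library, neighbours in each order, and the 3 highest and 2 lowest of each further list; other genes named were chosen after their values were seen. Where a symbol of a further list has 2 entries, the one with the higher mean was used. Stx10, Stx11 and Stx19 were not analysed here. A few genes enter the fits and counts but are not reported here by name or drawn. The lists of long-transcript and commissural genes were added after the data were seen. The alternatives were other pseudocounts, filters, scalings, levels and priors, a 1.5-fold margin and each library left out. Python 3.11.15 with pandas 2.3.3 made the summaries, and matplotlib 3.10.9 the plots.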

Additional observations from a re-analysis of the deposited data

How the results depend on the processing

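Of the 76 entries, 64 lay above 1 FPKM. After each library was rescaled so that its values had a common sum, a setting that moves the level itself, 15 did and 54 lay below, and 25 of the 88 further genes of the vesicle cycle lay above, in place of 72. Over all 11662 entries with a mean of at least 1 FPKM, the log2 difference of library 2 ran from -22.2 to 22.3. The part of such extreme entries in the sums was not tested. At a level of 5 FPKM, 44 entries lay above and 27 below. The share of all entries is not given for that level or for the rescaling. These counts therefore do not set the members apart from other genes. Under the other settings for pseudocount, filter, scaling, prior and level the count above ranged from 63 to 65. With each library left out in turn, it ranged from 62 to 64, the count below from 8 to 10 and the further genes stayed at 72. The number of differing pairs was 2218 to 2322 with a library left out, and 1987 of 2485 at a 1.5-fold margin. Without a filter, Stxbp2 did not pass (limma, adjusted p = 0.0776) and Syt2 lay below 1 FPKM (0.00788). With a plain prior, the lower Rims2 entry did not pass (0.0527), nor did Cplx1 over Cplx2, Syn1 over Syn3, Unc13a over Rims2 and Rab3a over Vamp2. With a pseudocount of 0.01, Unc13a over Rims2, Syt13 over Syt12 and Stxbp4 over Stxbp2 did not pass. With a pseudocount of 1, Rims2 over Rims4, Unc13b over Rims1 and Syn2 over Sv2b passed, the last 2 also with a plain prior. After the median of all entries was subtracted, a setting added after the data were seen, the median difference of library 2 for the 64 entries was -0.03 in place of 0.10. No paired analysis was possible because there is 1 group. FPKM gives no depth, so low values carry no counting interval.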
